A study of Homo sapiens with 2 samples.

Results

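ANKRD11 and SPEN are 2 human genes whose protein is encoded mostly by 1 very long exon. Their NUDT21-bound regions were taken from a list of 20499 eCLIP peaks, as every peak whose midpoint lay in the body of either gene in GENCODE 44. This gave 34 peaks in ANKRD11 and 21 in SPEN, together 55 peaks. The genes were chosen by the number of their peaks that fall in an annotated 3′UTR in this same list, so their peak counts and peak heights are given as a description, with no test. By that count ANKRD11 had 25 peaks and SPEN 20. IGF2R, with 27, was the gene above ANKRD11, PANK3 and PTAR1 had 22 each, DNMT1 also had 20, and the next genes below, DYNC1H1 and NOTCH1, had 18 each.

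The study profiled J-Gamma1 cells, a T-ALL (T cell acute lymphoblastic leukaemia) line derived from Jurkat, with 1 library made with a NUDT21 antibody and 1 input library. Both were exposed on ice to UV-C (254 nm, a dose of 400 mJ each time), lysed for 15 min and digested with 40 U of RNase I for 5 min, and neither carried any other labelled treatment or genotype. Peaks of the antibody library were analysed, and values of the input library were not analysed here. Whether the input served as the control in peak calling is not stated in the sources used here, so it may have entered the deposited values. With 1 library there was no replicate error, and how far NUDT21 occupied an RNA and how abundant that RNA was cannot be told apart. The sequencing depth behind each peak was not given in the sources used here. Of 10 T cell markers, 4 held a peak in the gene body (CD3E, CD247, ZAP70 and PTPRC), where 6444 of 19058 protein-coding genes did, and 0 of 3 B cell and 0 of 3 myeloid markers did. In exons of the MANE Select transcript, the default transcript of a gene, 2 of the 10 held one (CD3E and PTPRC), a share close to the 20.4% of all these genes, so the list does not check the cell type.

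NUDT21 belongs to cleavage factor Im, in which it recognises UGUA in pre-mRNA, and it steers the choice among polyadenylation sites, classically in 3′UTRs. In eCLIP, RNA crosslinked to a protein is recovered with an antibody and sequenced, so a peak marks a stretch of RNA over its local background. ANKRD11 is an ankyrin repeat protein of the nucleus that binds p160 nuclear receptor coactivators and histone deacetylases. SPEN is an RNA-binding corepressor that silences Notch targets with RBPJ and recruits the NCOR and HDAC3 complex through its SPOC domain. A transcript whose stop codon lies upstream of exon junctions is usually a target of nonsense-mediated decay (NMD), and everything downstream of that stop codon is annotated as 3′UTR although the same bases code for protein in the full-length mRNA.

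The stretches below are reference sequence of hg38, written as RNA 5′ to 3′ along each gene's own strand. The first set shows every peak in the long exons that held a UGUA, with the UGUA in capitals, because this is the motif NUDT21 is known for. Those of ANKRD11 lay at chr16:89284247-89284276, chr16:89284074-89284103 and chr16:89280271-89280300, on the minus strand. Those of SPEN lay at chr1:15931936-15931965 and chr1:15932413-15932442, on the plus strand.
ANKRD11 UGUA 1: gaaaaacugagacUGUAcaaagaggagaga
ANKRD11 UGUA 2: uuuugacgaauauUGUAacaaaaaucaguu
ANKRD11 UGUA 3: ccgagcccgccugUGUAgccgcuguggcuc
SPEN UGUA 1: caaggcgccggaaUGUAaggagcgucuaug
SPEN UGUA 2: ccccuguugaaguUGUAgagaaaaaaccgg

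The second set is the centre of the highest peak in each long exon, at chr16:89281700-89281729 (minus strand) and chr1:15935935-15935964 (plus strand), shown because these peaks held 0 UGUA over their whole length.
ANKRD11 centre: augaagcaaauggagaagcugaggcaccgg
SPEN centre: aagcugccaagacaccagaugccaaagcug

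The third set holds the early stop codons of the transcripts that turn these coding exons into annotated 3′UTR, with the stop codon in capitals, at chr16:89291696-89291725 (minus strand) in ANKRD11-202 and chr1:15873125-15873154 (plus strand) in SPEN-202.
ANKRD11 stop: aagcaccauggcaUGAgauggagguuccua
SPEN stop: gagacuugaugggUAAguuccaagguuucu

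To place the peaks, the MANE Select transcript of each gene was used, the 1 transcript per gene that serves as its clinical and research default. ANKRD11 (ENSG00000167522.17) spans chr16:89267630-89490561 on the minus strand, and its MANE Select transcript, ANKRD11-201, has 13 exons and encodes 2663 residues. Exon 9, chr16:89279072-89285649, is 6578 nt long and carries 82.3% of the coding sequence, residues 298 to 2490. SPEN (ENSG00000065526.13) spans chr1:15836095-15940456 on the plus strand, and its MANE Select transcript, SPEN-201, has 15 exons and encodes 3664 residues. Exon 11, chr1:15928091-15936266, is 8176 nt long and carries 74.4% of the coding sequence, residues 617 to 3342. In both genes, then, a single exon holds most of the protein, and it is called the giant exon here.

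In ANKRD11, 21 of the 34 peaks lay in the giant exon (61.8%, exact 95% interval 43.6 to 77.8), 5 in other exons of the MANE Select transcript and 8 in introns. The giant exon makes up 2.95% of the gene body and 70.7% of the spliced transcript. Giant exon peaks count toward the 3′UTR number that chose the gene and intron peaks do not, so nothing is read from these shares. In SPEN, 11 of the 21 peaks lay in the giant exon (52.4%, interval 29.8 to 74.3), 9 in other exons and 1 in an intron. That exon makes up 7.83% of the SPEN gene body and 66.0% of the spliced transcript. The intervals cover counting error only, and peaks of 1 exon share a library and an RNA and are not independent.

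Per length, the giant exon of ANKRD11 held 3.19 peaks per kb (exact Poisson 95% interval 1.98 to 4.88) and its other exons 1.84 (0.6 to 4.29), a ratio of 1.74 (0.64 to 5.9). The giant exon of SPEN held 1.35 peaks per kb (0.67 to 2.41) and its other exons 2.14 (0.98 to 4.06), a ratio of 0.63 (0.24 to 1.72). With peaks at most 100 nt apart merged, the ratio of ANKRD11 turned to 0.66, and that of SPEN was 0.51. These are counts of the kind that chose the genes, and no test is drawn from them. By bases, 51.3% of the giant exon of ANKRD11 (3375 nt) lay inside a peak, against 14.9% of its other exons pooled. The pooled share hides a wide spread. Exons 4, 5, 7 and 8 lay 44.6%, 69.6%, 81.8% and 41.2% inside peaks, exon 1 15.1%, and 7 exons held no peak. The giant exon therefore did not stand apart from every other exon, and its bases inside peaks are tied to the choice as well. In SPEN the shares for the giant exon and the other exons pooled were 17.4% (1422 nt) and 18.6%.

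Peaks ran along the whole of ANKRD11 exon 9. Cut into 3 equal stretches in transcript direction, the exon had 7 peaks in each, covering 54.4%, 51.3% and 48.2%. The first peak began after 194 nt, and the longest stretch without a peak, 552 nt, started 2808 nt into the exon. In SPEN exon 11 the peaks lay toward the 3′ end, with 1, 3 and 7 peaks in the 3 stretches, covering 2.7%, 10.4% and 39.0%. The first 2259 nt of SPEN exon 11 held no peak at all. Of the bases inside SPEN peaks, 74.8% were in the last stretch, against 31.3% in ANKRD11.

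**Figure D1:**
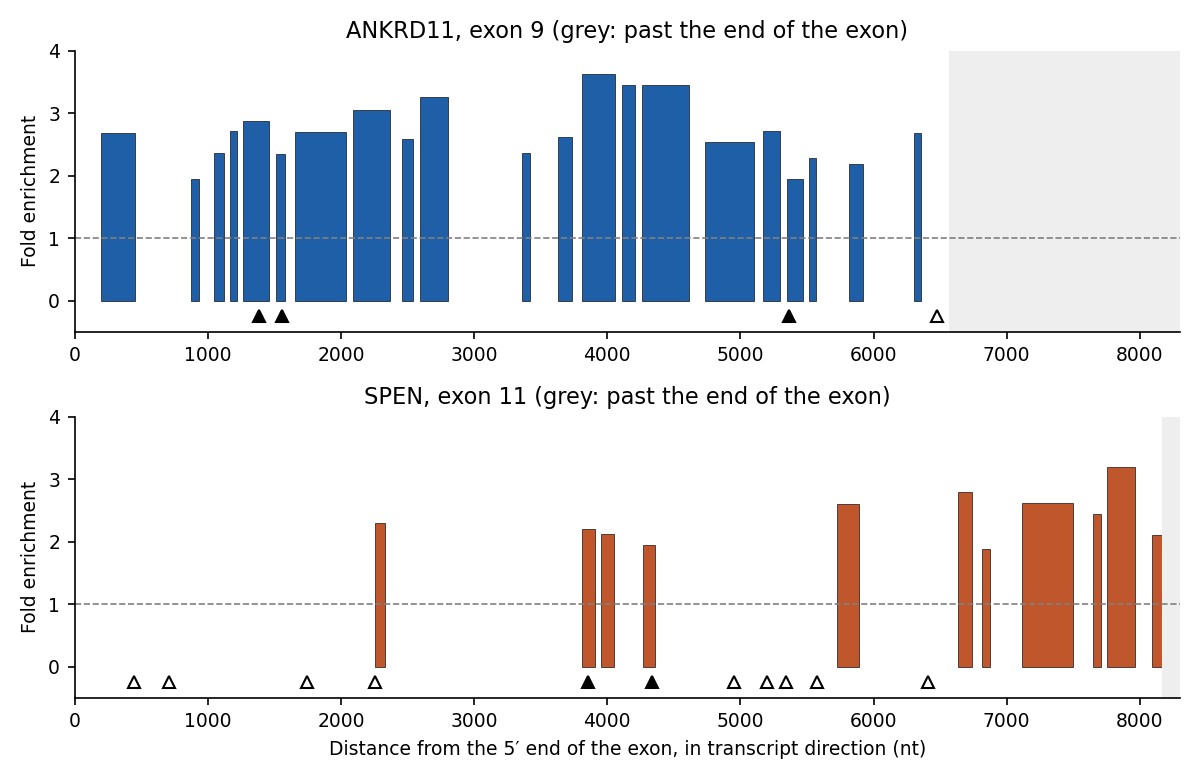
Deposited peaks along the giant exons of ANKRD11 (top) and SPEN (bottom). The x axis is the distance in nt from the 5′ end of the exon in transcript direction, each bar spans 1 peak and its height is the fold enrichment over local background; triangles mark UGUA, filled inside peaks and open outside, and the dashed line is a fold enrichment of 1. The 21 peaks of ANKRD11 run along the whole exon, while 7 of the 11 peaks of SPEN lie in the last of 3 equal stretches.

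Neighbouring peaks in ANKRD11 exon 9 lay close together. Of 20 neighbouring pairs, 13 were at most 100 nt apart and 8 were exactly 48 nt apart. In SPEN exon 11, 3 of 10 pairs were at most 100 nt apart and 1 was 48 nt apart. A gap of 48 nt was the most common one up to 100 nt in the whole list, with 755 of 20471 pairs (3.69%), and 48 nt was also the shortest peak. Merging peaks at most 100 nt apart turned the 21 peaks of ANKRD11 exon 9 into 8 blocks, of which the longest, chr16:89282843-89284604, was 1762 nt and joined 8 peaks. The 11 peaks of SPEN exon 11 also became 8 blocks, so after merging both exons had the same number, while the bases inside the deposited peaks were 3375 and 1422.

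The height of a peak was read as the deposited fold enrichment over local background and as the Score, which took only multiples of 0.2278 in this list; these multiples are called steps. In ANKRD11 exon 9 the fold enrichment ran from 1.94 to 3.63 with a median of 2.68, and the Score from 7 to 15 steps with a median of 11. In SPEN exon 11 the fold enrichment ran from 1.89 to 3.19 with a median of 2.29, and the Score from 6 to 13 steps with a median of 9. Over all 20499 peaks the medians were 1.61 and 3 steps. Peaks in coding sequence, counted with CDS ahead of 3′UTR, had medians of 2.37 and 8 steps. Both giant exons thus had medians above those of the list as a whole, which includes 7801 intron peaks with a median of 1 step. Beside all peaks in coding sequence, ANKRD11 exon 9 was higher in both medians. SPEN exon 11 was lower in fold enrichment and higher in steps. These heights describe genes chosen by their peaks, so nothing is read from the comparison.

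The highest peak of ANKRD11, chr16:89281591-89281837, had a fold enrichment of 3.632 and 15 steps and covered codons 1569 to 1651. The next, chr16:89281439-89281542 and chr16:89281036-89281390, both had 3.458 and 14 steps, over codons 1667 to 1701 and 1718 to 1836. These 3 followed one another, with midpoints 3936, 4160 and 4437 nt into the exon of 6578 nt. Further upstream in the exon stood chr16:89282843-89283059, with 3.252 and 14 steps, and chr16:89283280-89283563, with 3.052 and 13 steps. The lowest of the exon, at 1.942 and 7 steps, were chr16:89284719-89284776 and chr16:89280180-89280301.

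The highest peak of SPEN, chr1:15935847-15936051, had a fold enrichment of 3.194 and 13 steps and covered codons 3203 to 3271, near the 3′ end of exon 11. It was followed by chr1:15939322-15939432 in exon 15, at 3.026 and 11 steps, which ran over the stop codon of the MANE Select transcript. The peak chr1:15876215-15876312 in exon 3, at 2.865 and 10 steps, was the third of the gene. Next came chr1:15934723-15934829 in exon 11, at 2.794 and 12 steps, and chr1:15876595-15876703 in exon 3, at 2.666 and 9 steps. Of the 5 highest peaks of SPEN, then, 3 lay outside the giant exon, whereas the 5 highest of ANKRD11 were all inside it.

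Intron peaks were low, as they were in the whole list, where their medians were a fold enrichment of 1.17 and 1 step. The 8 in ANKRD11 had 1 to 2 steps and fold enrichments of 1.17 to 1.39, and the 1 in SPEN, chr1:15854085-15854274, had 2 steps and 1.389. A local background was worked out for each peak as the Score plus 1, divided by the fold enrichment, minus 1, a form inferred from the values and not stated in the sources used here. It was 0.034 to 0.048 at the intron peaks of ANKRD11, against 0.135 to 0.48 (median 0.293) in its giant exon and 0.231 to 0.528 (median 0.336) in that of SPEN. Over the list its median was 0.048 at intron peaks and 0.125 at peaks in coding sequence, so a lower value in introns is not particular to these genes. The peak in exon 4 of ANKRD11, chr16:89305186-89305267, had 14 steps, as many as the second highest peaks of the gene, but a background of 1.0 and so a fold enrichment of 2.094.

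The list gives no strand, so peaks were assigned to ANKRD11 and SPEN by position. No peak in an exon of either gene lay in the body of another annotated gene. In ANKRD11 introns, 3 peaks lay in the same-strand gene ENSG00000288715, and the peak at chr16:89296732-89296881 lay in the opposite-strand gene ENSG00000260279. A pair at chr16:89441359-89441430 and chr16:89441835-89441906, both 72 nt and of 1 step with starts 476 nt apart, lay in the opposite-strand gene ENSG00000287351.

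At least 5 steps were reached by 26 of the 34 ANKRD11 peaks and 20 of the 21 SPEN peaks, where 42.3% of all peaks reached them; these values belong to the measure that chose the genes, and nothing is read from the comparison. All 21 and all 11 giant exon peaks were among them. Deposited p-values ran from 7.01e-05 to 0.0453 in ANKRD11 exon 9 and from 0.00193 to 0.0453 in SPEN exon 11. The deposited FDR was 1 for every peak of both genes, so 0 of 34 and 0 of 21 passed 0.05, which 0.0927% of all peaks (19) did. The peaks of these exons therefore stood as called by the authors' peak caller, without passing the file's own FDR column.

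**Figure D2:**
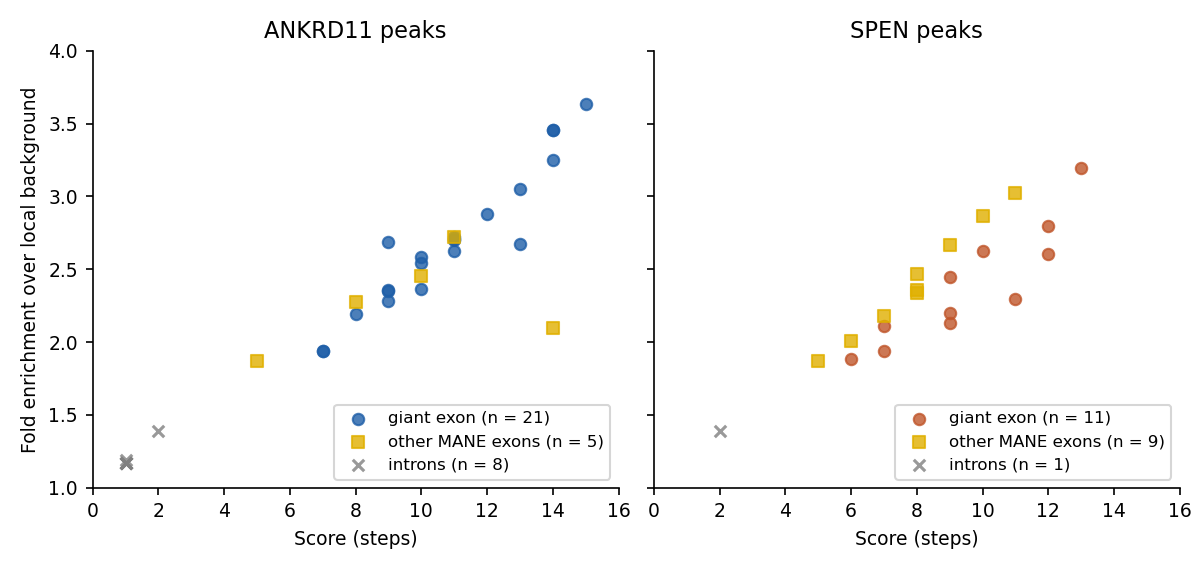
Score in steps (x axis) against fold enrichment over local background (y axis) for each peak of ANKRD11 (left) and SPEN (right), by position in the giant exon, in other MANE Select exons or in introns. Intron peaks sit at 1 to 2 steps, and the exon 4 peak of ANKRD11 sits apart at 14 steps with a fold enrichment of 2.094.

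Outside the giant exons, the peaks of both genes fell in part of the exons only. In ANKRD11, exons 1, 4, 5, 7 and 8 held 1 peak each, and all of them lie upstream of exon 9. Exons 10 to 13 of ANKRD11 held 0 peaks, although exon 13 is 1034 nt long and carries the 3′UTR. In SPEN, exon 3 held 3 peaks, exons 10, 12, 13 and 14 held 1 each, and exon 15, which carries the 3′UTR, held 2. Exons 1, 2 and 4 to 9 of SPEN held none. Downstream of the giant exon every exon of SPEN therefore held a peak and no exon of ANKRD11 did.

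**Figure D3:**
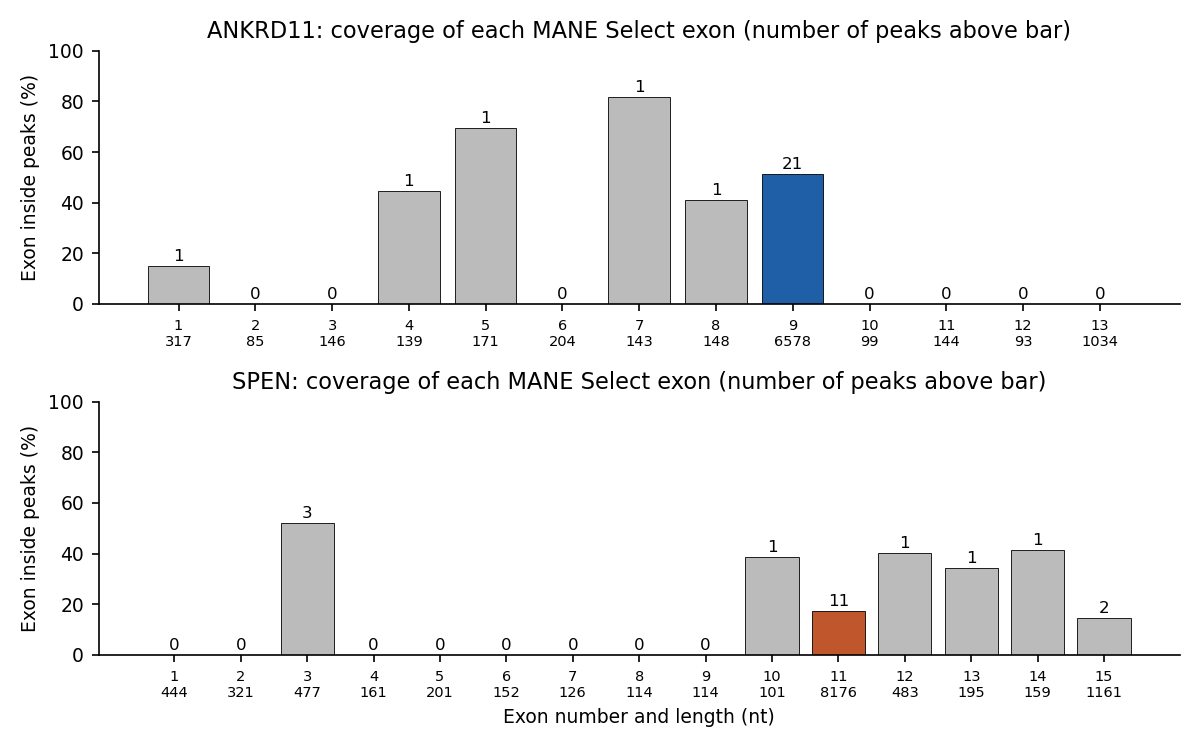
Percentage of each MANE Select exon inside peaks (y axis) by exon number, with the exon's length in nt under the number, for ANKRD11 (top) and SPEN (bottom); the giant exon is coloured, and the number of peaks stands above each bar. Exons 10 to 13 of ANKRD11 hold 0 peaks and exons 12 to 15 of SPEN hold at least 1 each.

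To determine which transcripts make these peaks 3′UTR peaks, each midpoint was compared with every GENCODE transcript of its gene. When a 3′UTR of any transcript takes precedence over CDS, 27.3% of all peaks are assigned to a 3′UTR; for ANKRD11 the number was 25 of 34 peaks and for SPEN 20 of 21, the counts by which the genes were chosen. All 25 of ANKRD11 and 19 of the 20 of SPEN had their midpoint in the coding sequence of the MANE Select transcript. For 25 of 25 peaks in ANKRD11 and 18 of 20 in SPEN the 3′UTR came from transcripts of the type nonsense-mediated decay and from no other, while the midpoint lay in MANE Select coding sequence; over the list this held for 28.2% of the 5602 peaks assigned to a 3′UTR. By this count ANKRD11 stood first of 778 genes and SPEN shared the fourth place with DYNC1H1. These peaks are part of the 3′UTR count that chose the genes, so nothing is read from the ranks.

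A single transcript decided this in each gene. In ANKRD11, 24 of the 25 peaks lay in the 3′UTR of ANKRD11-202 (ENST00000330736.10), and 22 of them, including all 21 of the giant exon, in that of no other transcript. ANKRD11-202 has 14 exons and carries an additional exon of 97 nt, chr16:89291681-89291777. Its stop codon, the UGA printed above, lies in that exon and ends the reading frame after 97 residues. With 9 exons after the stop, 8151 nt of ANKRD11-202 are annotated as 3′UTR, the whole of exon 9 among them. The remaining ANKRD11 label, on the exon 4 peak, came from ANKRD11-204 alone.

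In SPEN, all 20 peaks lay in the 3′UTR of SPEN-202 (ENST00000438066.2), and 18 of them, including all 11 of the giant exon, in that of no other transcript. SPEN-202 runs past the end of MANE Select exon 2 for 1259 nt, chr1:15873137-15874395. Its stop codon, the UAA printed above, begins at the second base past that exon end and stops the reading frame after 135 residues. With 13 exons after the stop, 12875 nt of SPEN-202 are annotated as 3′UTR. The transcript support level, a scale on which 1 is the best evidence, was 5 for ANKRD11-202 and 3 for SPEN-202.

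The bases that belong to ANKRD11-202 and SPEN-202 and not to the MANE Select transcripts held no peak. Of the 97 nt of ANKRD11-202 and the 1259 nt of SPEN-202 outside MANE Select exons, 0 were touched by a peak. At 1.84 to 3.19 peaks per kb in the exons of ANKRD11, a stretch of 97 nt would seldom hold one. In SPEN, 8 MANE Select exons held no peak either, so nothing is read from these zeros. The 97 nt are not particular to ANKRD11-202: ANKRD11-207 and ANKRD11-224 have the same stop codon there, and ANKRD11-230 covers them too. In 2 other NMD transcripts that give 3′UTR labels in ANKRD11, ANKRD11-207 and ANKRD11-224, the bases outside MANE Select exons were touched by 1 peak, the same in both. It was the exon 7 peak, chr16:89288504-89288644, which runs past the edge of that exon at position 89288528. Which transcripts the bound RNA came from was not tested. The midpoints of the giant exon peaks were annotated as CDS in 3 to 4 transcripts of ANKRD11, and in 1 to 2 of SPEN.

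The 3′UTRs of the MANE Select transcripts held few peaks. That of ANKRD11, chr16:89267630-89268477 (848 nt), held 0 peaks. That of SPEN, chr1:15939428-15940456 (1029 nt), held the midpoint of 1 peak, chr1:15939796-15939852, with a fold enrichment of 2.176 and 7 steps, and the end of the peak over the stop codon, together 62 nt. With CDS ahead of 3′UTR, the number of 3′UTR peaks became 0 in ANKRD11 and 1 in SPEN. With NMD transcripts left out it was 0 and 2, and with the MANE Select transcript alone 0 and 1.

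**Figure D4:**
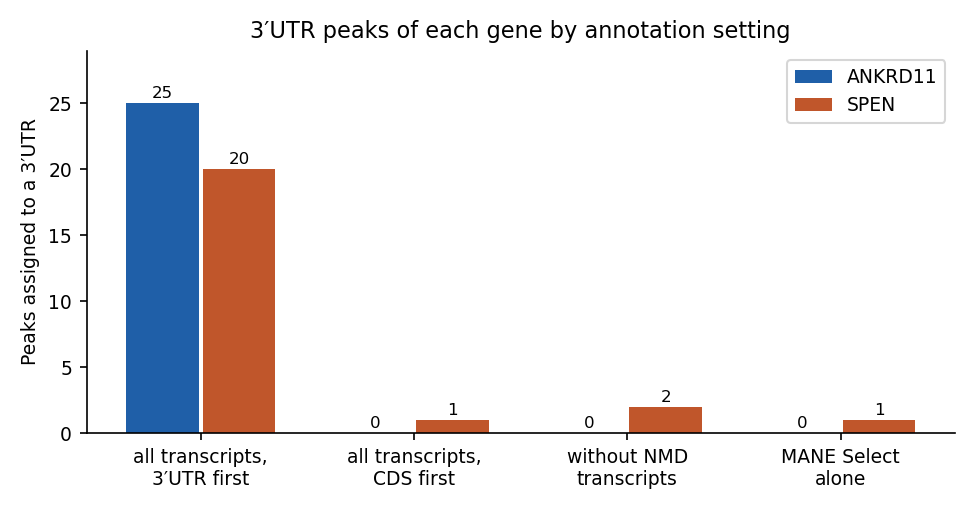
Number of peaks of ANKRD11 and SPEN assigned to a 3′UTR (y axis) under 4 ways of using the GENCODE transcripts (x axis). The counts of 25 and 20 fall to 0 and 1 when CDS takes precedence, 0 and 2 without NMD transcripts, and 0 and 1 with the MANE Select transcript alone.

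To ask whether other genes with a giant exon were bound alike, the 127 protein-coding genes whose MANE Select transcript has an exon with at least 4000 coding nt were compared. In 40 of them (31.5%) the exon held a peak, ANKRD11 and SPEN among them. ANKRD11 stood second by number of peaks, second by the share of the exon inside peaks and first by peaks per kb. SPEN stood sixth by number of peaks, level with SON, rank 10 by share inside peaks and rank 12 by peaks per kb. The giant exon peaks of both genes are part of the count that chose them, so nothing is read from these ranks. Whether the genes without a peak in the exon were expressed was not examined. The ranks by number depend on how finely peaks were split: with peaks at most 100 nt apart merged, a setting chosen after seeing the data, ANKRD11 and SPEN had 8 each and shared rank 3, and by number per kb they stood at rank 11 and rank 14. The other 38 had a median of 4 peaks (1 to 24), 0.78 peaks per kb (0.06 to 3.0) and 10.7% of the exon inside peaks (0.7 to 59.3).

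The exons nearest to that of ANKRD11 were those of MAP1A, a microtubule-associated protein, with 24 peaks over 45.6% of its length, and of MKI67, the proliferation antigen Ki-67, with 17 peaks over 59.3%. RESF1, a retroelement silencing factor, had 15 peaks over 46.8%. SRRM2 and SON, proteins of nuclear speckles, had 16 peaks over 32.8% and 11 over 30.4%. Of genes near SPEN, the spindle protein ASPM had 10 peaks over 17.3%, the histone methyltransferase KMT2A 10 over 33.1%, and BOD1L1, which protects replication forks, 8 over 15.2%.

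The region label of the exon peaks was then counted over the same genes. All 21 and all 11 of their exon peaks were assigned to a 3′UTR, whereas 0 of the 24 of MAP1A, 0 of the 17 of MKI67, 0 of the 15 of RESF1, 0 of the 11 of SON and 0 of the 10 of KMT2A were. SRRM2 had 8 of 16 and ASPM 2 of 10. Over the 38 other exons, 28 of 210 peaks were assigned to a 3′UTR, in 8 exons, and in 5 of these, among them GOLGB1 and ASH1L, every peak was. These counts belong to the measure by which ANKRD11 and SPEN were chosen, and the difference was not tested.

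**Figure D5:**
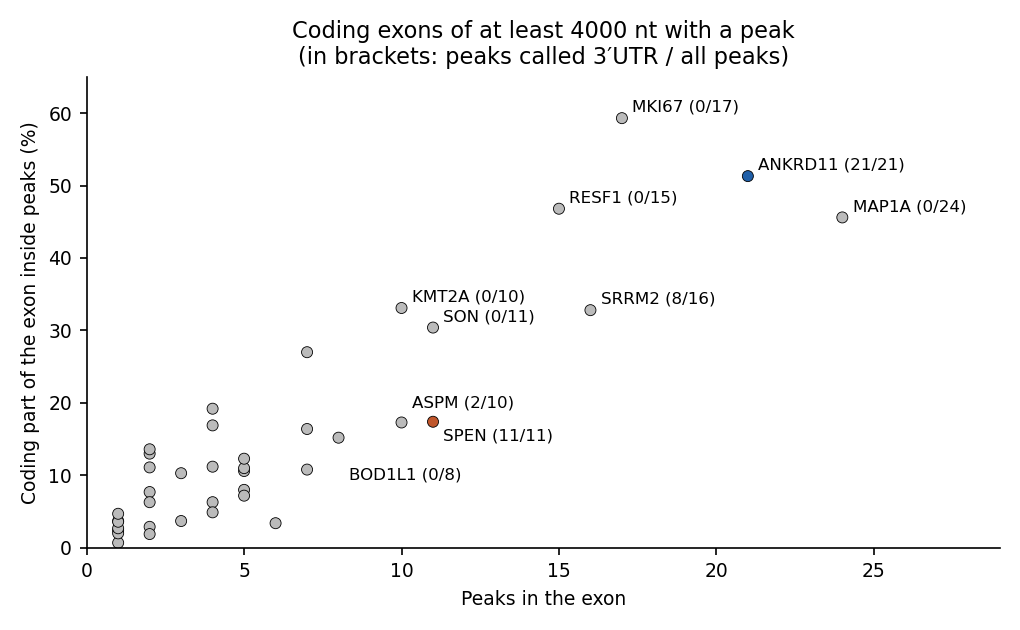
Number of peaks (x axis) against the percentage of the coding part of the exon inside peaks (y axis) for the 40 coding exons of at least 4000 nt that held a peak; the 10 with most peaks are named, with their peaks assigned to a 3′UTR over all their peaks. ANKRD11 lies beside MKI67, MAP1A and RESF1, and SPEN beside ASPM.

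Sequence was not used to choose the genes. On the gene's strand, ANKRD11 exon 9 held 4 UGUA, 3 inside peaks and 1 outside, or 0.89 and 0.31 per kb (ratio 2.85, exact 95% interval 0.23 to 149.47). SPEN exon 11 held 11, 2 inside and 9 outside, or 1.41 and 1.33 per kb (ratio 1.06, interval 0.11 to 5.1). A UGUA lay in 3 of the 21 peaks of ANKRD11 (14.3%, 3.0 to 36.3) and in 2 of the 11 of SPEN (18.2%, 2.3 to 51.8), with median peak lengths of 106 and 96 nt. Over all peaks in coding sequence, with a median length of 82 nt, 1342 of 6340 (21.2%) held one on the coding strand, a share within both intervals. No enrichment or depletion of UGUA was detectable with so few sites. Over the 38 other long exons, 79 UGUA lay inside peaks and 561 outside, or 2.61 and 2.99 per kb (ratio 0.87, 0.68 to 1.11).

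The 3 UGUA of ANKRD11 lay in peaks with fold enrichments of 2.877, 2.35 and 1.942, and those of SPEN in peaks of 2.203 and 1.942. In each exon the lowest of these was among the lowest peaks, and the peaks with the highest fold enrichment, whose centres are printed above, held no UGUA. The opposite strand of the same exons held 9 UGUA inside and 5 outside peaks in ANKRD11, and 3 inside and 16 outside in SPEN. The polyadenylation signals AAUAAA and AUUAAA were counted after the values had been seen: ANKRD11 exon 9 held 1 inside and 2 outside peaks, and SPEN exon 11 held 0 and 3.

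Base composition differed between the exons. In ANKRD11 exon 9, bases inside peaks were 56.2% G or C and those outside 57.8%, although the exon itself went from 49.5% in its first stretch to 67.4% in its last. In SPEN exon 11 the values were 59.0% inside and 50.6% outside, with C at 35.1% inside and 25.0% outside and A at 23.6% and 30.6%. SPEN exon 11 also became richer in G and C along its length, at 44.2%, 52.6% and 59.4% in the 3 stretches, in the same order as its coverage by peaks, so position and composition cannot be told apart there. Among the 17 other long exons with at least 5 peaks, the difference in GC between inside and outside ran from -4.0 to 6.4 percentage points with a median of 0.1, below the 8.4 of SPEN. The share of peak bases in the last stretch of those exons ran from 0.0% to 73.2% with a median of 25.9%, so the 74.8% of SPEN lay just past BOD1L1, which had 73.2%.

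To set both genes beside the proteins they work with, peaks were counted in 4 short lists of partners, where 20.4% of protein-coding genes held a peak in a MANE Select exon. In the NCOR and HDAC3 complex that SPEN recruits, 2 of 5 genes held one. The scaffold NCOR1 had 23 exonic peaks, TBL1XR1 had 4, and HDAC3 and TBL1X had no peak; GPS2 had 1, outside its MANE Select exons. In the Notch pathway 3 of 7 held one: the receptor NOTCH1 had 19, the histone methyltransferase KMT2D 38 and the DNA-binding factor RBPJ 2, while NOTCH3, the coactivator MAML1, the target HES1 and the ubiquitin ligase DTX1 had none.

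Of the relatives, the SPEN family member RBM15 and the ANKRD11 paralog ANKRD12 had 4 exonic peaks each, all in coding sequence, and RBM15B had none. None of the peaks of RBM15 and ANKRD12 was assigned to a 3′UTR, where 27.3% of all peaks were. SPEN and ANKRD11 were chosen by this label, so nothing is read from the difference to their relatives. Among the partners of ANKRD11, 1 of 4 held an exonic peak: the coactivator NCOA3 had 7, all in its MANE Select 3′UTR, with fold enrichments of at most 1.606 and at most 3 steps, below every peak of ANKRD11 exon 9. NCOA1, NCOA2 and TADA3 had none.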

How the data were processed

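The authors trimmed the reads with fastp, removed duplicates by molecular identifiers and removed ribosomal RNA reads. They mapped to hg38 (aligner not given in the sources used here) and stated that peaks were called with MACS2 at a q-value of 0.05. In the deposited FDR column 19 of 20499 peaks were under 0.05, so the list does not reflect that cutoff by this column. The deposited list gives each peak's position, fold enrichment (a ratio over local background), p-value, FDR as a further p-value column, and Score. Whether that background was drawn from the input library or from the antibody library itself is not stated in the sources used here. The deposited Score was treated as a signal; its unit is not stated. The list has 1-based coordinates and no strand, and its depth is unknown.

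Peaks were assigned by midpoint to GENCODE 44 with Python 3.11.15, pandas 2.3.3, numpy 2.4.6, scipy 1.17.1 and pysam 0.24.0, with 3′UTR ahead of 5′UTR, then CDS, then other exons, then introns; stop codons counted as CDS. The giant exon is the MANE Select exon with most coding bases. Intervals are exact (Clopper-Pearson or Poisson, 95%) and cover counting error only. Functions were tested on simulated data. No test across samples was possible with 1 library.

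The genes and gene lists were chosen with earlier results of these data known. Named genes were both members, the 10 long exons with most peaks, the genes of the partner lists (1 planned list gene is not reported here and was left out of its list's count), and the 5 highest peaks of each gene; the lowest peaks of ANKRD11 exon 9, peaks outside the exons, GOLGB1 and ASH1L were named after their values were seen. Alternatives were stricter peak sets, merged or extended peaks, other annotation settings and other motif windows. Protein sequences were not used here.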

Additional observations from a re-analysis of the deposited data

How the results depend on the processing

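Of 54 alternative values for 12 results, 42 stayed within the tolerance set for them and 12 moved. That tolerance was wide for the ratios. Values within it include the ANKRD11 ratio of peaks per kb at 0.66 in place of 1.74. They also include its UGUA ratio at 0.95 to 7.95 in place of 2.85, so the 42 do not all keep a direction. Merging peaks at most 100 nt apart left 8 peaks in the giant exon of ANKRD11 in place of 21, and 12 assigned to a 3′UTR in place of 25. The number assigned to a 3′UTR was 0 in ANKRD11 and 1 in SPEN with CDS in precedence, 0 and 2 without NMD transcripts, and 0 and 1 with the MANE Select transcript alone. The share of the giant exon inside peaks was 48.6% and 15.5% with peaks of a fold enrichment of at least 2, and 74.8% and 28.8% with peaks extended by 50 nt on each side.

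Merging also took the ratio of peaks per kb in giant over other exons of ANKRD11 from 1.74 to 0.66, so that ratio has no settled direction. In a setting chosen after seeing the data, merging changed the ranks among long coding exons by peaks from 2 to 3 in ANKRD11 and from 6 to 3 in SPEN, and those by peaks per kb from 1 to 11 and from 12 to 14. The UGUA ratio of ANKRD11 was 1.06 with a fold enrichment of at least 2, 1.01 with extended peaks, 0.95 for UGUAA or UGUAU, 1.71 on the opposite strand and 7.95 for the central 100 nt; that of SPEN was 0.54, 0.93, 1.19, 0.89 and 1.68. Each rests on a handful of sites. Replicates were 1 in number, so no library could be left out. No paired analysis was possible because each group has 1 sample. The input library was not analysed here, and the depth is unknown.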
